A study of Homo sapiens with 50 samples.

Results

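Between population doubling 50 (PD50) and population doubling 55 (PD55), a library of short hairpin RNAs carried by ageing human fibroblasts narrowed to a small number of hairpins. The interval was described over every hairpin that had at least 10 sequence tags in the PD50 or the PD55 column of the deposited table, which was 2417 of the 3443 hairpins listed. Of these 2417, 2274 named 1 target gene, 142 named several genes and 1 was the non-targeting control. The remaining 1026 hairpins were not described, and 228 of them had 0 tags in both columns.

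The cells were IMR90, a normal human lung fibroblast line with a limited lifespan, grown at 3% oxygen. Lentiviruses carrying hairpins against regulators of chromatin were prepared as 5 initial pools, joined in pairs into 10 paired pools, and used to infect 10 plates at a multiplicity of infection of 0.3. Each plate was passaged until growth stopped, and genomic DNA was taken every 5 doublings from PD40 to PD60, when the cultures were senescent. All groups therefore carried the hairpin library, and PD50 and PD55 differed in the number of doublings and in no added agent.

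Replicative senescence is the lasting arrest that normal cells enter after many divisions, and it is held in place largely by the cell cycle inhibitors encoded at CDKN2A and CDKN1A and by the retinoblastoma protein. A hairpin integrates into the genome of the cell it infects and is copied with each division, so its share of the tags follows the share of the culture descended from that cell. Hairpins carried by cells that divide for longer gain share as the others stop, and hairpins carried by cells that stop early, or that grow slowly, lose it. Because shares sum to the whole, a few large gains lower the share of every other hairpin.

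The PD50 column held 8479667 tags and the PD55 column 11505688, or 1.36 times as many, and the other 3 columns held between 8270745 and 8782622. Each tag count was divided by its column's total and given as CPM, the count at a column total of 1000000, and a change is log2 of the PD55 over the PD50 CPM after adding 1 CPM to both. Each column pooled the 10 plates, so there was 1 value per hairpin per time, no replicate and no test, and a change past 2-fold is a size, not a test result. Each initial pool went into 4 of the paired pools, but the table had no column per plate, so it cannot show whether a gain arose in 1 plate or in all of those carrying the hairpin. Ratios are given with 95% intervals from the tag counts. The tags came from PCR without molecular identifiers, so the intervals cover counting error only and not the spread between plates. Neither the RNA of the target genes nor markers of the cell type can be read from DNA tags, so knockdown and cell identity were not checked. No hairpin sequences were used here, and hairpins are named by their library identifiers.

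Most hairpins lost share. The median change was -1.91 on the log2 scale, a median loss of 3.77-fold, with quartiles of -2.61 and -1.18 and a full range from -5.46 to 2.77. Over 2-fold higher at PD55 were 41 hairpins, 1.7% of those measured, and over 2-fold lower were 1952, or 80.8%. A further 424 hairpins, 17.5%, stayed within 2-fold, and 127 had any gain of share. At PD55, 88 of the measured hairpins, 3.64%, had no tag at all. Those 88 had a median of 15.5 tags at PD50. The most abundant of them at PD50 was HMGB3 hairpin TRCN0000018521, with 100 tags at PD50 and 0 at PD55, at least 45.2-fold lower against a floor of 3 tags per column. No measured hairpin was at 0 at PD50.

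The size of these counts depended on what the columns were scaled to. With TMM scaling, which trims extreme hairpins, the median was -0.34, 376 hairpins (15.6%) were over 2-fold higher and 547 (22.6%) were over 2-fold lower. With DESeq2 size factors the median was -0.18 and the numbers were 456 (18.9%) higher and 438 (18.1%) lower. Scaling to the tags outside the 50 most abundant hairpins gave a median of -1.39, with 128 (5.30%) higher and 1523 (63.0%) lower. The 41 hairpins over 2-fold higher as shares of the column were over 2-fold higher under all 3 of these scalings. All 3 scalings move the changes up, so that outcome was fixed beforehand. Of the 41, 36 stayed over 2-fold higher with a pseudocount of 10 CPM and 40 with PD55 thinned to the PD50 total. Without the pseudocount, TMM scaling moves every change up by 2.12 and DESeq2 size factors by 2.34, so a loss of share smaller than these turns into a gain. The changes below are changes of share of the column and are best read against the median of -1.91.

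The 41 higher hairpins held 17.3% of all tags at PD50 and 47.3% at PD55. The 1952 lower hairpins went from 36.1% to 9.30%, and the 424 within 2-fold went from 46.5% to 43.4%. In all, 35.7 percentage points of the tags changed hands, and the 10 largest gains accounted for 26.8 of these points and the 3 largest for 15.6. The losses were spread more thinly, since the 10 largest came to -7.80 points together.

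The leading hairpin held 5.73% of tags at PD50 and 12.9% at PD55 when both columns were thinned to the same total. The 10 leading hairpins held 29.9% and then 48.1%, and the 35 leading hairpins 51.1% and then 73.6%. At PD50 it took 33 hairpins to reach 50% of the tags and 402 to reach 90%, whereas at PD55 it took 11 and 127. The effective number of hairpins, the number of equally abundant hairpins that would give the same Shannon diversity, went from 245 to 81.1, or 3.02 times fewer. Hairpins with at least 10 tags went from 2409 to 1662 and hairpins with any tag from 3117 to 2709. The library thus lost evenness faster than it lost members. The leaders themselves changed little: 8 of the 10 most abundant hairpins at PD50 were among the 10 most abundant at PD55, and 25 of the 35 most abundant at PD50 were among the 35 at PD55.

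A single hairpin against NAP1L4, which encodes a nucleosome assembly protein and histone chaperone, led both columns. TRCN0000154499 had 485834 tags at PD50 and 1490079 at PD55, a ratio of 2.26 (95% interval 2.25 to 2.27), and it took 7.22 percentage points, the largest gain of share. The other 4 measured NAP1L4 hairpins went the other way, from 7573 to 1818 tags, from 1407 to 569, from 108 to 39 and from 27 to 1. The leading hairpin held 99.8% of the gene's tags at PD55.

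The second largest gain of share belonged to TSSK6, a testis-specific serine kinase that phosphorylates histones. TRCN0000037459 went from 154128 to 742206 tags, a ratio of 3.55 (3.53 to 3.57), which moved it from rank 10 to rank 2 and added 4.63 points. The other 3 measured TSSK6 hairpins had lower shares, at 25072 and 18384, 6881 and 5217, and 253 and 33 tags. The hairpin in the third place targeted HBB, the adult beta-globin gene, which fibroblasts are not known to use. TRCN0000029098 went from 193229 to 693439 tags, a ratio of 2.64 (2.63 to 2.66), and from 2.28% to 6.03% of the column. The other 3 measured HBB hairpins lost share, at 4537 and 1802, 375 and 270, and 52 and 8 tags.

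Among the proteins that organise chromosomes, HMGB1, a DNA-bending high mobility group protein, had the largest gain. HMGB1 hairpin TRCN0000018930 went from 55983 to 376753 tags, a ratio of 4.96 (4.92 to 5.00), and added 2.61 points. The only other measured HMGB1 hairpin went from 66 to 11 tags. SMC1B encodes a cohesin subunit used in meiosis, and its hairpin TRCN0000155357 went from 175274 to 498115 tags, a ratio of 2.09 (2.08 to 2.11). Its 4 other measured hairpins all had lower shares, the most abundant at 19934 and 12522 tags. In each of these 5 genes 1 hairpin gained share and the other measured hairpins lost it. The genes were named for that gain, and only 127 of the 2417 measured hairpins (5.25%) gained any share. Losses among the other hairpins are therefore no mark of these genes. As given above, small losses of share turn into gains with TMM scaling or DESeq2 size factors.

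Among the 10 largest gains of share were also TADA3L, IL12A and PADI4. TADA3L encodes an adaptor subunit of the SAGA and ATAC acetyltransferase complexes, and its hairpin TRCN0000015733 went from 65012 to 260788 tags, a ratio of 2.96 (2.93 to 2.98). IL12A encodes a subunit of interleukin-12, and its hairpin TRCN0000058775 went from 47871 to 221161 tags, a ratio of 3.40 (3.37 to 3.44). PADI4 converts histone arginines to citrulline, and its hairpin TRCN0000051678 went from 21466 to 136991 tags, a ratio of 4.70 (4.64 to 4.77). PADI4 differed from the others in having a second hairpin with a gain, from 1832 to 3512 tags, a ratio of 1.41 that did not reach 2-fold. HIST2H2AB, a core histone H2A gene, and IKBKE, an innate immune kinase of the I-kappaB kinase family, also gained over 1 point without passing 2-fold. HIST2H2AB hairpin TRCN0000074248 went from 174557 to 388360 tags, a ratio of 1.64, and IKBKE hairpin TRCN0000010034 from 141592 to 333739, a ratio of 1.74.

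Several of the steepest gains were of hairpins that were less common at PD50. SETD2, the enzyme that adds the trimethyl mark to lysine 36 of histone H3, had the hairpin with the highest change. TRCN0000003033 went from 7499 to 69351 tags, or from 884 to 6028 CPM, a ratio of 6.82 (6.66 to 6.98), and from rank 186 to rank 28. ERCC6 hairpin TRCN0000016773 had a higher ratio, 9.58 (1.44 to 407), but on 1 and 13 tags, and its change with 1 CPM added was 0.93. The other 3 measured SETD2 hairpins went from 2542 to 264, from 359 to 54 and from 77 to 54 tags. TGM2, a transglutaminase that crosslinks proteins, came next. Its hairpin TRCN0000000241 went from 1702 to 14591 tags, a ratio of 6.32 (6.01 to 6.65), while the other 4 measured had lower shares, at 1843 and 1423 tags for the most abundant.

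HELLS, a helicase of the SNF2 family needed for DNA methylation of repeats, had a ratio of 6.20 (5.62 to 6.86), from 439 to 3694 tags, at hairpin TRCN0000000307. Its other measured hairpin went from 45 to 2 tags. CYP27B1, which makes the active form of vitamin D, had a ratio of 5.57 (4.99 to 6.22) at TRCN0000064366, from 368 to 2780 tags. Its other measured hairpins lost share, at 8824 and 3791, 251 and 34, and 47 and 11 tags. CREB1, a cyclic AMP-responsive transcription factor, had 1 measured hairpin, TRCN0000007308, which went from 208 to 1204 tags, a ratio of 4.27 (3.68 to 4.97). ORC2L, a subunit of the origin recognition complex that loads the replicative helicase, went from 262 to 1353 tags at TRCN0000020323, a ratio of 3.81 (3.33 to 4.36). The other measured ORC2L hairpin went from 23 to 5 tags. The 4 gaining hairpins of HELLS, CYP27B1, CREB1 and ORC2L had between 208 and 439 tags at PD50 and together stayed a small part of the column.

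RPA1 was the only gene with 2 hairpins over 2-fold higher, counted on changes with 1 CPM added. By ratio, without the added CPM, a second H2AFX hairpin also passed 2-fold, at 2.13 (1.45 to 3.19) on 37 and 107 tags. RPA1 encodes the large subunit of replication protein A, which coats single-stranded DNA during replication and repair. RPA1 hairpin TRCN0000005985 went from 1465 to 10649 tags, a ratio of 5.36 (5.07 to 5.66), and TRCN0000010982 from 69 to 425 tags, a ratio of 4.54 (3.51 to 5.94). No measured RPA1 hairpin went the other way, but only 2 of its 4 hairpins were measured, since the others had 0 tags in both columns and 1 tag and then 0. Both RPA1 hairpins had lost share earlier, between PD40 and PD45, from 3801 to 1817 and from 574 to 65 tags.

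The remaining gains over 2-fold fell on genes of several chromatin roles, with ratios from 2.01 to 3.90. Among writers and erasers of acetylation were SIRT1, a NAD-dependent deacetylase (TRCN0000018979, 7906 to 30219 tags, ratio 2.82), HAT1, which acetylates new histone H4 (TRCN0000034738, 8505 to 30425 tags, ratio 2.64), and MYST1, the H4 lysine 16 acetyltransferase (TRCN0000034877, 13265 to 36093 tags, ratio 2.01). Each had other measured hairpins with lower shares. SIRT1 had 2 such hairpins, at 1266 and 271 and at 106 and 30 tags, and HAT1 had 3, the most abundant at 3447 and 660 tags.

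Histone genes were represented by HIST1H2AH (TRCN0000106761, 26275 to 114664 tags, ratio 3.22), HIST1H2BH (TRCN0000106883, 19503 to 72052 tags, ratio 2.72), the H2A variant genes H2AFV (TRCN0000106838, 1063 to 4319 tags, ratio 2.99) and H2AFX (TRCN0000073278, 4603 to 15712 tags, ratio 2.52), and a hairpin naming HIST1H2AL and HIST1H2AI together (TRCN0000106731, 17976 to 56028 tags, ratio 2.30). Histone genes of one family are close to identical in sequence, so a hairpin named for 1 of them may act on several. The histone H3 and H4 list had 0 of 86 hairpins and the H1 list 0 of 40 over 2-fold higher, against 1.7% of all hairpins.

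Kinases of genome surveillance and growth were represented by ATR, the kinase activated by single-stranded DNA, and FRAP1, the older symbol of MTOR, the nutrient-responsive growth kinase. ATR hairpin TRCN0000039617 went from 56901 to 183420 tags, a ratio of 2.38 (2.35 to 2.40), while the other 6 measured had lower shares, the most abundant at 1121 and 97 tags. FRAP1 hairpin TRCN0000038678 went from 46 to 167 tags, a ratio of 2.68 with a wide interval from 1.92 to 3.79. Readers and remodellers among the 41 included CBX1, an HP1 protein that binds methylated lysine 9 of histone H3 (TRCN0000062223, ratio 2.73), ACTL6A, an actin-related subunit of SWI/SNF (TRCN0000072275, ratio 2.06), and TAF3, a TFIID subunit that reads H3 lysine 4 trimethylation (TRCN0000016612, ratio 2.23). The transcription factor genes FOXC2, PRDM16, ID3 and SOX12 each had 1, with ratios of 2.59, 2.16, 2.03 and 3.90, and SOX12 rested on 7 and 37 tags, with an interval from 1.71 to 10.4. Others were HORMAD2, ATF7IP2, PI3, TSPYL2 and DDX1, and a hairpin naming CDY2A, CDY2B, CDY1 and CDY1B together, with ratios between 2.02 and 3.15.

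The largest losses of share were also single abundant hairpins. MAF, a leucine zipper transcription factor, lost the most at TRCN0000000258, from 338224 to 296012 tags, a ratio of 0.645 and a change of -1.42 points. PHC1, a Polycomb repressive complex 1 subunit, went from 402210 to 428789 tags at TRCN0000153821, a ratio of 0.786 and a change of -1.02 points. Neither passed 2-fold as a share, and both remained among the 10 most abundant, with MAF at rank 9 and PHC1 at rank 5. Both turned over 2-fold higher with TMM scaling, MAF to a change of 1.49 and PHC1 to 1.77, and with DESeq2 size factors, to 1.70 and 1.99. PRDM9, the meiotic H3 lysine 4 methyltransferase, went from 180207 to 137274 tags at TRCN0000016807, a ratio of 0.561, which turned to a change of 1.28 with TMM scaling and was also above 0 with DESeq2 size factors. The CDKN2A hairpin TRCN0000010482, against the locus of the p16 inhibitor, went from 147187 to 126565 tags, a ratio of 0.634 and a change of -0.636 points. The direction of this CDKN2A hairpin depended on the scaling, with a log2 change of -0.66 as a share, 0.37 without the 50 most abundant hairpins in the scaling, 1.46 with TMM and 1.68 with DESeq2 size factors. The other 6 measured CDKN2A hairpins also had lower shares, from 20751 to 6326 tags for the most abundant.

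Over 2-fold lower among the 10 largest losses of share were hairpins against EP300, HIST1H1B, SMARCA2, ASH1L and TNP1. The EP300 hairpin TRCN0000009883 went from 120345 to 37563 tags, 4.35-fold lower, with a change of -1.09 points. The linker histone gene HIST1H1B lost 4.36-fold at TRCN0000106809, from 62721 to 19510 tags, and its second abundant hairpin went from 35414 to 8229. SMARCA2, an ATPase of SWI/SNF, lost 3.13-fold at TRCN0000020332, ASH1L, a histone methyltransferase, lost 2.99-fold at TRCN0000016169, and TNP1, a sperm transition protein, lost 2.65-fold at TRCN0000073286. With TMM scaling or DESeq2 size factors the changes of the SMARCA2, ASH1L and TNP1 hairpins were above 0, between 0.47 and 0.93, and with DESeq2 size factors those of EP300 (0.22) and HIST1H1B (0.21) were too.

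The hairpins with the lowest changes had between 405 and 2420 tags at PD50 and were nearly gone at PD55. SMC1A, the mitotic counterpart of SMC1B in cohesin, had the lowest change, -5.46, at TRCN0000062555, from 496 to 4 tags, 168-fold lower with a ratio between 0.00161 and 0.0153. IKBKB, the kinase that releases NF-kappaB from its inhibitor, went from 408 to 2 tags at TRCN0000018917, a ratio of 0.00361 (0.000436 to 0.0131). CBX2, a Polycomb reader of H3 lysine 27 methylation, went from 1023 to 27 tags at TRCN0000020326, 51.4-fold lower. AKT1, a growth and survival kinase, went from 405 to 8 tags at TRCN0000010171, 68.7-fold lower. IKBKE, which had one of the largest gains, also had one of the lowest changes, from 2420 to 101 tags at TRCN0000010036, 32.5-fold lower. TBL1XR1, a corepressor subunit, lost 56.0-fold at TRCN0000060743, PCGF1, a Polycomb ring finger protein, lost 37.1-fold at TRCN0000073131, and ERCC6, a repair ATPase, lost 36.3-fold at TRCN0000016776. All of these losses exceeded the counting error by far.

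The non-targeting control went from 669 tags at PD50 to 133 at PD55, 6.83-fold lower (ratio 0.121 to 0.177), a change of -2.67, which is below the median of all hairpins. It was 1 hairpin in 1 column per time, so it gives no spread for hairpins without a target. LMNB1 encodes lamin B1 of the nuclear envelope, and its knockdown was the study's control for earlier senescence. Of the 5 LMNB1 hairpins, 4 had lower shares, from 4587 to 2177 tags, from 2190 to 688, from 318 to 191 and from 30 to 3, though the first 3 of these were above 0 with TMM scaling or DESeq2 size factors. The fifth, TRCN0000029272, went from 13478 to 84423 tags, a ratio of 4.62 (4.53 to 4.70), and took the gene's summed share from 0.243% to 0.760%. Which of the 5 served as the control is not given in the sources used here.

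EP300 encodes p300, an acetyltransferase and coactivator, and 3 of its hairpins were among the abundant ones at PD50 and parted ways in the interval. TRCN0000009882 went from 53944 to 130397 tags, a ratio of 1.78 (1.76 to 1.80), TRCN0000009884 from 101992 to 120137, a ratio of 0.868, and TRCN0000009883 lost 4.35-fold as given above. The other 4 measured had lower shares, of which the most abundant at PD50, TRCN0000039885, went from 6192 to 1157 tags, 7.26-fold lower. Of these, TRCN0000039887 was above 0 with TMM scaling and DESeq2 size factors, and TRCN0000039884 with DESeq2 size factors. The gene's summed share went from 3.37% to 2.53%, and its mean change was -1.23 ± 1.25 (SD over 7 hairpins). For CREBBP, the paralogue of EP300, 2 of 5 hairpins were measured, at 4251 and 1464 tags and at 12 and 1 tags, with a mean of -1.56, and the first was above 0 with TMM scaling (0.14) and DESeq2 size factors (0.36).

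Of the 644 genes named alone by at least 1 hairpin, 637 had at least 1 measured hairpin and 487 had 3 or more. Among the 487, 31 genes (6.37%) had 1 hairpin past 2-fold in the upward direction, and none (0%) had 2 or more. These counts are of changes with 1 CPM added. In 222 genes (45.6%) every measured hairpin was over 2-fold lower. Gene means ran from -3.68 to 0.35 with a median of -1.91. The median SD within a gene was 0.92, against 1.12 over all hairpins, so hairpins against the same gene differed from each other nearly as much as hairpins at large. Summed over hairpins, 63 genes gained share.

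H2AFX, the histone variant that is phosphorylated at DNA breaks, had the highest mean, 0.35 ± 1.05 (SD over 4 hairpins), and was the only one of the 487 above 0. Its 4 hairpins went from 4603 to 15712, from 4536 to 6857, from 37 to 107 and from 13005 to 8566 tags, with ratios of 2.52, 1.11, 2.13 and 0.485. The hairpin with the ratio of 2.13 had a change of 0.94 with 1 CPM added, so it was not counted as over 2-fold higher. H2AFX was thus a gene in which 3 of 4 hairpins gained share. ACTL6A followed with a mean of -0.01 ± 1.18 (SD over 4 hairpins), from 7409 to 20739, from 315 to 691, from 21758 to 26765 and from 22 to 2 tags. HIST3H2BB, a histone H2B gene, had a mean of -0.51 ± 0.47 (SD over 4 hairpins) without any hairpin past 2-fold, at 6898 and 6003, 3585 and 2741, 2084 and 3229, and 1698 and 1361 tags. In HIST3H2BB the high mean came from 4 hairpins that each stayed within 2-fold. TSSK6 (mean -0.72, SD 1.98) and PADI4 (mean -0.72, SD 2.18) each had 1 hairpin over 2-fold higher and 2 within 2-fold. Over 2-fold lower were 1 hairpin of TSSK6 and 2 of PADI4. Their medians over hairpins, -0.86 and -0.94, were also above the -1.91 of all hairpins. CHD4, the ATPase of the NuRD complex, had a mean of -0.72 ± 0.51 (SD over 4 hairpins). It too had no hairpin over 2-fold higher, but 1 was over 2-fold lower.

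IKBKB had the lowest mean, -3.68 ± 1.23 (SD over 4 hairpins), with hairpins at 408 and 2, 186 and 14, 97 and 1, and 66 and 7 tags. SMC1A followed at -3.50 ± 1.71 (SD over 3 hairpins), from 3377 to 707, from 922 to 233 and from 496 to 4 tags. DICER1, the nuclease that matures microRNAs, had the lowest mean with close agreement, -3.32 ± 0.32 (SD over 3 hairpins), from 667 to 73, from 282 to 22 and from 149 to 16 tags. Next came RBBP7, a histone-binding subunit shared by PRC2 and deacetylase complexes, at -3.28, then TBL1XR1 at -3.26, SMC5, a subunit of a DNA repair complex, at -3.26, FABP2 at -3.18, FKBP5, a steroid receptor cochaperone, at -3.13, PCGF2, a Polycomb ring finger protein, at -3.10 and POLR2B, the second largest subunit of RNA polymerase II, at -3.03. The 10 genes with the lowest means had 3 or 4 measured hairpins each. In POLR2B the most abundant hairpin, with 7986 and 5149 tags, changed far less than the others, with 1081 and 86 and with 251 and 9 tags.

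In groups of related genes, fixed lists of 35 pathways and complexes covered 412 of the 644 genes. List medians lay between -2.41 and -1.18, on either side of the -1.91 of all hairpins, and 15 lists had no hairpin over 2-fold higher. With 1.7% of all hairpins over 2-fold higher and 80.8% over 2-fold lower, a count of 0 higher in a list of this size, or a large number lower, is no mark of a list. The medians of 13 lists stayed on one side of the median of all hairpins under each of the 10 alternative settings tried, 9 above it and 4 below it. Among those that kept their side were linker histones H1, at -0.5 from that median, histones H3 and H4, at -0.21, and H2B histones, at 0.07. The SD over all hairpins was 1.12. Every setting reuses the PD50 and PD55 columns, so keeping a side gives no measure of spread. Linker histone H1 genes had the lowest median, -2.41 over 40 hairpins, with 35 (87.5%) over 2-fold lower, against 80.8% of all hairpins, and none over 2-fold higher, and their summed share went from 2.34% to 0.570%. HIST1H1D, a linker histone gene, was the most uniform of these, at -2.92 ± 0.19 (SD over 4 hairpins), from 15549 to 2277, from 5625 to 1078, from 1715 to 314 and from 848 to 151 tags. H1FX was the least changed linker histone gene, at -1.11 ± 0.38 (SD over 3 hairpins).

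Core histones H3 and H4 had a median of -2.12 over 86 hairpins, with 70 lower and none higher. The H2B list had a median of -1.84 over 46 hairpins, with 34 lower and 1 higher. The canonical H2A list had a median of -2.09 over 32 hairpins, with 25 lower and 1 higher, and the H2A variants -1.63 over 22 hairpins, with 14 lower and 2 higher, although both crossed the median of all hairpins when no tag minimum was set. Within the variants, H2AFX at 0.35 and H2AFY2, a macroH2A gene, at -3.01 stood at opposite ends.

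Among enzymes that methylate histones, the list of H3 lysine 36, H3 lysine 79 and H4 lysine 20 methyltransferases had a median of -2.38 over 30 hairpins, with 26 lower. Its summed share still went up, from 0.468% to 0.663%, through the SETD2 hairpin alone, and without that hairpin it went from 0.380% to 0.0601%. SUV420H2, an H4 lysine 20 methyltransferase, had the lowest mean there, -2.92 ± 0.79 (SD over 5 hairpins). H3 lysine 4 methyltransferases and their menin complexes had a median of -1.65 over 64 hairpins, with 50 lower and none higher. Its ends were CXXC1, a CpG-binding subunit, at -2.93 and ASH1L at -1.32 ± 0.23 (SD over 5 hairpins). All ASH1L hairpins but TRCN0000016169 had only 13 to 28 tags at PD50, and by ratio were 4.98-fold to 19.0-fold lower. There the 1 CPM added to each column holds a change close to 0. The ASH1L mean and SD therefore cannot be read as a smaller or more uniform loss.

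PRC2 had a median of -2.22 over 29 hairpins, with 24 lower and none higher, but it crossed the median of all hairpins with a pseudocount of 10 CPM and without a tag minimum. EZH2, its catalytic subunit, was at -1.10 ± 0.90 (SD over 6 hairpins), and its most abundant hairpin kept its share at 10920 and 14310 tags. JARID2, its DNA-binding cofactor, was at -2.45 ± 0.07 (SD over 3 hairpins). PRC1 had a median of -1.90 over 66 hairpins, with 57 lower and none higher, and the PHC1 hairpin held 3.73 of its 4.40% of the column at PD55.

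Histone acetyltransferases had a median of -1.58 over 76 hairpins, with 56 lower and 2 higher, against -2.02 over 30 hairpins for the zinc-dependent deacetylases, with 27 lower and none higher. The acetyltransferase median stayed above that of all hairpins under each alternative, while the deacetylase median crossed it without a tag minimum, and the difference between the lists was not tested. MYST1 had the highest acetyltransferase mean, -0.88 ± 1.19 (SD over 5 hairpins), and NCOA3, a nuclear receptor coactivator, the lowest, -2.38 ± 1.57 (SD over 5 hairpins). Bromodomain readers of acetylation had a median of -2.08 over 72 hairpins, with 62 lower and none higher.

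The medians of the 3 remodeller lists lay close to that of all hairpins. The SWI/SNF list had a median of -1.83 over 42 hairpins, with 33 lower and 1 higher, and ran from ARID1A at -2.51 to SMARCC1 at -0.97, SMARCB1 at -0.99 and ACTL6A at -0.01. CHD helicases and NuRD subunits had a median of -1.90 over 46 hairpins, with 37 lower and none higher, and were on the other side of the median of all hairpins in 6 of the 10 alternative settings. ISWI, INO80 and SRCAP remodellers had a median of -2.01 over 44 hairpins, with 39 lower and 1 higher, the HELLS hairpin, and crossed it without a tag minimum. Histone chaperones had a median of -1.65 over 73 hairpins, with 54 lower and 2 higher, and their share went from 6.66% to 13.7%. Without the leading NAP1L4 hairpin, the chaperones' share went from 0.927% to 0.713%.

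Genes of the DNA damage response had 4 of 38 measured hairpins over 2-fold higher, 10.5%, and genes of DNA replication and mitosis had 3 of 31, 9.68%, against 1.7% of all hairpins. RPA1 belongs to both lists and supplied 2 of the hairpins in each. The list medians were -1.66 and -1.37, and both crossed the median of all hairpins with TMM scaling, with DESeq2 size factors, without the 50 most abundant hairpins in the scaling and with a pseudocount of 0.1 CPM. Cohesin, condensin and other SMC genes had a median of -1.80 over 39 hairpins, with 34 lower, and held both SMC1A, one of the lowest genes, and the SMC1B hairpin that alone made up 4.33 of their 4.52% of the column at PD55. Transglutaminases and arginine deiminases, with only 3 genes and 14 hairpins, had the highest list median, -1.18, with 7 lower and 2 higher.

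The RB and CDK inhibitor genes, which act in the arrest of senescent cells, had no hairpin over 2-fold higher among 33 measured, and 23 were over 2-fold lower, with a median of -1.90. CDKN1A, which encodes p21, had a mean of -1.43 ± 0.89 (SD over 6 hairpins), RB1 -1.48 ± 1.23 (SD over 8 hairpins) and CDKN2A -1.81 ± 0.74 (SD over 7 hairpins). The list of PI3 kinase, AKT, mTOR and S6 kinase genes had 99 measured hairpins, the most of any list, with a median of -1.96, 79 lower and 1 higher. The NF-kappaB pathway had a median of -1.92 over 32 hairpins, with 24 lower and none higher, and spanned IKBKB at -3.68 to NFKB1 at -0.93.

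Changes were also set out by abundance at PD50, which is both the value used to sort the hairpins and the denominator of the change. In the highest quintile by PD50 tags, 28 hairpins (5.79%) were over 2-fold higher and the median change was -1.47. The next quintiles down had medians of -2.38, -2.50, -2.18 and -1.27, with 5, 5, 2 and 1 hairpins over 2-fold higher, so the medians had no single order by abundance. The lowest quintile had 16.3% of its hairpins at 0 at PD55, and there the 1 CPM added to each column holds a change close to 0, and 646 of all measured hairpins passed the tag minimum only through PD50 against 8 only through PD55, so its median cannot be read as a smaller loss than that of the middle quintiles. The highest quintile held 92.2% of the tags at PD50 and 97.5% at PD55.

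The other intervals, which each had their own set of measured hairpins, gave 196 of 3420 hairpins (5.73%) over 2-fold higher from PD40 to PD45, 69 of 3112 (2.22%) from PD45 to PD50, and 97 of 1795 (5.4%) from PD55 to PD60. The 41 of 2417 from PD50 to PD55 was the smallest of the 4 counts as shares of the column, but with TMM scaling over all 5 columns the counts in order were 676, 572, 390 and 286, so its place among the intervals depends on the scaling. Over 2-fold lower in those 3 intervals were 2163 (63.2%), 2223 (71.4%) and 1314 (73.2%). The percentage points of tags that changed hands over all 4 intervals were 34.5, 31.6, 35.7 and 50.8 in order. The neighbouring intervals share a column with this one, and no relation between them and the changes above was computed.

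The interval from PD40 to PD45 shares no column with PD50 and PD55. Of the 41 hairpins over 2-fold higher between PD50 and PD55, 13 (31.7%) had also been over 2-fold higher between PD40 and PD45, against 195 of 2415 hairpins (8.07%) measured in both intervals. Their median change in that first interval was 0.39, against -0.94 for all 2415. Of the 41, 28 were in the highest quintile by PD50 tags. No rates were computed for hairpins of like abundance, so the differences here and below were not separated from abundance. The 13 were the hairpins of NAP1L4, TSSK6, HBB, HMGB1, SMC1B, TADA3L, ATR, HIST1H2AH, HIST1H2BH, SIRT1, TAF3, PRDM16 and the CDY genes. HBB had the steepest course among them, with 336 CPM at PD40, 4874 at PD45, 22787 at PD50 and 60269 at PD55.

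Another 7 of the 41 (17.1%) had been over 2-fold lower between PD40 and PD45, against 1169 of the 2415 (48.4%). They were both RPA1 hairpins and those of CYP27B1, CREB1, ORC2L, FRAP1 and SOX12. CYP27B1 had 428 CPM at PD40, 42.6 at PD45, 43.4 at PD50 and 242 at PD55. The gains between PD50 and PD55 therefore included hairpins with a gain in the first interval and hairpins with a loss in it. Between PD45 and PD50 their courses differed. PRDM16 fell from 548 to 307 CPM while HBB rose, and ORC2L fell from 55.9 to 30.9 CPM while CYP27B1 barely changed.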

How the data were processed

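The series comprised 50 samples, 10 plates at each of 5 doublings, and the 20 at PD50 and PD55 enter here as 1 pooled column each. The authors deposited counts of tags per hairpin, whole numbers with no normalization per the file headers and values. Tags were aligned with Bowtie 1.0.1, per the submitters' processing notes, with settings not stated there, and how the plates were combined is not given in the sources used here. Plate-level values were not analysed here.

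Counts were scaled to the column total, and hairpins with at least 10 tags in either column were kept. Of the 27 hairpins whose higher column held 10 tags, just inside that minimum, changes ran from -1.12 to -0.14, and of the 40 with 9 tags, just outside, from -1.04 to 0.67. A pseudocount of 1 CPM was added before log2. Ratio intervals were exact 95% binomial intervals of the 2 counts. Fold changes against 0 used a floor of 3 counts per column. Gene values were means over the measured hairpins that name that gene alone, and gene rankings needed 3 hairpins. No test was run, because each doubling is 1 column. Scaling factors came from edgeR 4.0.16 (TMM) and DESeq2 1.42.0 in R 4.3.3. Other steps ran in Python 3.11.15 (scipy 1.17.1, pandas 2.3.3, numpy 2.4.6) and were tested on simulated data.

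Hairpins named were the 12 highest and 12 lowest changes and the 10 largest gains and losses of share. Genes named were LMNB1, EP300, CREBBP and the non-targeting control, the 10 highest and lowest means, every gene with 2 or more hairpins over 2-fold higher, the 10 largest gains and losses of summed share, and up to 3 members at each end of a list. Other genes among the 41 higher hairpins, and HIST1H1D, JARID2 and CHD4 values by hairpin, were chosen after their values were seen. The hairpins, lists and rules were chosen with earlier results of these data known. Some hairpins and genes that the rules took are not reported here.

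Gene symbols are the table's own. Against the RefSeq GRCh38.p14 gene table, 530 were current symbols, 106 an older name of 1 gene, 6 of several, and 2 had no match. Alternatives tried were TMM, DESeq2 size factors, scaling without the 50 most abundant hairpins, pseudocounts of 0.1 and 10 CPM, tag minimums of 0, of 10 in both columns and of 30, thinning PD55 to the PD50 total, and other gene summaries.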

Additional observations from a re-analysis of the deposited data

How the results depend on the processing

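No paired analysis was possible because the table pools the 10 plates of a doubling, and for the same reason no plate could be left out. The median change was -0.34 with TMM scaling, -0.18 with DESeq2 size factors, -1.39 scaled without the 50 most abundant hairpins, -2.47 and -0.94 with pseudocounts of 0.1 and 10 CPM, -1.43 with no tag minimum, -1.99 with 10 tags in both columns and -2.12 with 30 tags. Hairpins over 2-fold higher numbered 376, 456 and 128 under the 3 scalings in that order, and those over 2-fold lower 547 with TMM, 438 with DESeq2 size factors and 1148 with a pseudocount of 10 CPM. Hairpins at 0 at PD55 numbered 407 with no minimum, 0 with 10 tags in both columns and 15 with 30 tags, and the share at 0 in the lowest quintile was 3.41% with 30 tags, as the minimum itself removes them.

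Genes with a mean above 0 numbered 174, 232 and 14 under the 3 scalings, 6 with a pseudocount of 10 CPM, 5 with no minimum, 2 with 10 tags in both columns, with 30 tags, with PD55 thinned, with medians over hairpins and without each gene's most abundant hairpin, 49 with summed tags, 6 with 2 hairpins required and 0 with 5. Genes with at least 1 higher hairpin numbered 218, 259 and 93 under the 3 scalings, 12 with 5 hairpins required and 3 without each gene's most abundant hairpin. Genes with 2 or more numbered 77, 100 and 6 under the 3 scalings and 1 with a pseudocount of 0.1 CPM, no minimum, PD55 thinned or 2 hairpins required. Over the 5 columns, TMM gave 676, 572, 390 and 286 higher hairpins in the 4 intervals.

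With TMM and then DESeq2 size factors, changes turned positive for CREBBP TRCN0000006487 (0.14, 0.36), ASH1L TRCN0000016169 (0.54, 0.76), SMARCA2 TRCN0000020332 (0.47, 0.69), LMNB1 TRCN0000029269 (0.0070, 0.22), TRCN0000029270 (0.91, 1.12) and TRCN0000029273 (0.60, 0.82), EP300 TRCN0000039887 (0.77, 0.98) and TNP1 TRCN0000073286 (0.71, 0.93). With DESeq2 size factors alone they did for EP300 TRCN0000009883 (0.22) and TRCN0000039884 (0.15) and HIST1H1B TRCN0000106809 (0.21). POLR2B stood 0.64 above the median with summed tags. The hairpins of MAF, PHC1, PRDM9 and CDKN2A with large losses of share, which were within 2-fold, also turned positive, to between 1.28 and 1.99 over these scalings. The cause was not tested. The diversity ratio, the points moved and the number of lists above the median stayed within 1.5 times. Of values for named genes, 490 moved by less than the spread between hairpins, which is a wide limit, 30 moved by more and 1 reversed. Of values for named hairpins, 369 moved by less than their counting error, 144 moved by more and 19 reversed. Of values for lists, 295 stayed within the limit set and 55 moved past it. Keeping 1 hairpin of each of the 11 measured pairs of the same gene with matching counts, an alternative chosen after seeing the data, left 41 higher and 1945 lower. Depth limits the lowest quintile of hairpins, at 1 to 39 tags at PD50.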

Other observations

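Several genes had a small SD over hairpins without being among the extremes. SMC3, a cohesin subunit, had a mean of -1.78 with an SD of 0.15 over 4 hairpins, at 161 and 59, 95 and 25, 92 and 26, and 54 and 16 tags. EHMT2, an H3 lysine 9 methyltransferase, had an SD of 0.20 over 3 hairpins, at 813 and 462, 519 and 377, and 14 and 5 tags. At 14 and 5 tags the 1 CPM added to each column holds the change close to 0, so this SD cannot be read as close agreement. PRMT5, an arginine methyltransferase, had a mean of -2.84 with an SD of 0.39 over 4 hairpins. The widest disagreement among genes with 3 or more measured hairpins was in IKBKE, with an SD of 3.03 over 3 hairpins at 141592 and 333739, 12152 and 14328, and 2420 and 101 tags. SETD2 followed with an SD of 2.88 over 4 hairpins and H2AFV with 2.56 over 3.

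Hairpins naming several genes had a median of -1.96 over the 142 measured, with 2 over 2-fold higher and 112 over 2-fold lower. Among the 12 lowest changes was 1 of these, TRCN0000106935, which names HIST1H4F and other histone H4 genes and went from 1807 to 48 tags, 51.1-fold lower.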
